A study of Homo sapiens with 6 samples.

Results

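The receptor tyrosine kinase KIT, its ligand KITLG, the ubiquitin ligase genes CBL and CBLB, the CBL-like gene CBLL1, the adaptors GRB2 and SHC1, the RAS exchange factor SOS1 and the receptors EGFR and MET were followed in ES-2 cells that had received a mir-22 mimic. They are 10 of the 18852 genes that a probe of the array names alone. Every probe annotated to one of these symbols was taken, 21 in all. The genes were put together with the fold changes of these same arrays known, so their fold changes are given as a description and without p-values. Counts of their probes past a threshold are not read as a test. ES-2 is an established line from a human ovarian clear cell carcinoma. The first group of 3 arrays came from ES-2 cells transfected with hsa-mir-22 mimic, a double-stranded RNA that copies the microRNA, at 65 nM. The second group of 3 arrays came from ES-2 cells transfected with a control mimic built on microRNAs of the worm C. elegans, whose dose is not given in the labels. All cells were harvested 48 hours after transfection, all are of 1 line, and the labels call the arrays of a group biological replicates without naming separate cultures, so the spread between arrays may be technical.

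KIT sits in the cell membrane. When KITLG, also called stem cell factor, binds it, the receptor pairs up, phosphorylates itself and recruits the adaptors SHC1 and GRB2, which bring SOS1 to RAS. CBL and CBLB bind active receptors and tag them with ubiquitin, which sends them to the lysosome and ends the signal, and EGFR and MET are handled by the same ligases and adaptors. A microRNA pairs through its seed, bases 2 to 8, with sites mostly in the ends of messenger RNAs and usually lowers them.

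The labels name the mimic hsa-mir-22 without an arm, and the microRNA itself was not measured by these probes. Both mature arms are shown because the seed is what the mimic adds to the cells. They are RefSeq sequences (GRCh38.p14), 22 bases each, written 5′ to 3′ with the seed in capitals. The first lies at chr17:1713914-1713935 and the second at chr17:1713952-1713973, both on the minus strand.
hsa-miR-22-3p: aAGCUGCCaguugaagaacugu
hsa-miR-22-5p: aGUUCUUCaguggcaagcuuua

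Of the 21 probes, 19 were kept because their signal was above background (detection p under 0.01) on at least 3 of the 6 arrays, and all 19 were so on all 6. The other 2, 1 probe of KITLG and 1 of EGFR, were not above background on any array. Each of the 10 genes had a kept probe, and 7 of them had several. Across the array between 17465 and 19244 of 48803 probes were detected. A kept probe of these genes rested on 27 to 59 beads per array, and the standard error over beads ran from 2.00% to 12.9% of its intensity, highest on control mimic replicate 3. That array stood apart from the other controls, correlating with them at 0.980 and 0.981 over the kept probes, against 0.997 between those 2. The keratin genes KRT7, KRT8 and KRT18 and the filament gene VIM were detected on all 6 arrays. NAPSA and PAX8, markers used for clear cell and ovarian epithelial tumours, and the epithelial genes EPCAM, CDH1 and KRT19 were detected on none. Of cells known for high KIT, the mast cell list had 4 of 5 genes with a probe and the melanocyte list 3 of 4, and none of these was detected on any array. Of the list for interstitial cells of Cajal, which also carry KIT, ANO1 was detected on no array and ETV1 on all 6, at a log2 fold change of -0.12.

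KIT and KITLG were higher, and CBL and CBLB lower, on every mir-22 mimic array than on any control mimic array. KIT was higher by 1.43-fold and 1.56-fold at its 2 probes, and KITLG by 1.38-fold and 1.82-fold at its 2 kept probes. CBL was lower by 1.95-fold and 1.92-fold, and CBLB by 1.45-fold. Counted without a reading, since the genes were chosen on this contrast, 7 of their 19 kept probes passed an adjusted p of 0.05 in limma, 4 higher and 3 lower, beside 6.46% of all 18732 kept probes (3.04% higher and 3.42% lower). In these bulk samples more RNA per cell and more cells of a kind cannot be told apart.

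Values below are log2 intensities after background correction and quantile normalisation, in the order of replicates 1, 2 and 3. Levels of different probes are not compared. KIT probe ILMN_2229379 read 7.01, 6.99 and 6.82 on the mir-22 mimic arrays, against 6.39, 6.47 and 6.42 on the control mimic arrays. KIT probe ILMN_1790160 read 6.70, 6.91 and 6.69 with the mir-22 mimic and 6.14, 6.09 and 6.14 with the control mimic. The groups lay apart at both probes, by 0.35 and 0.54 between their nearest arrays, and the control arrays stayed close together (SD 0.04 and 0.03, n = 3). The log2 fold changes were 0.51 ± 0.10 and 0.64 ± 0.10, mir-22 mimic over control mimic, where ± is limma's moderated standard error. Within replicate numbers the difference was 0.61, 0.52 and 0.40 at ILMN_2229379 and 0.56, 0.82 and 0.54 at ILMN_1790160. Raw intensities of ILMN_2229379 were 175.7, 169.4 and 125.5 with the mir-22 mimic and 108, 113 and 97.5 with the control mimic, so the order of the groups was there before normalisation.

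KITLG probe ILMN_1808508 read 6.17, 6.03 and 6.13 on the mir-22 mimic arrays, against 5.65, 5.61 and 5.65 on the control mimic arrays. Probe ILMN_2341595 read 6.28, 5.97 and 6.13 with the mir-22 mimic and 5.55, 5.43 and 4.81 with the control mimic. Neither probe had overlapping groups, and the wide spread of the second (control SD 0.40, n = 3) came from control mimic replicate 3. Its value there was at the lowest level of any probe detected on that array (4.81). The log2 fold changes were 0.47 ± 0.09 and 0.86 ± 0.19, and without control mimic replicate 3 they were 0.48 and 0.64. ILMN_1746232, the probe that was not above background, read 4.28 to 4.55 with the mir-22 mimic and 4.43 to 4.57 with the control mimic, and its groups overlapped. These KITLG signals were dim, with raw intensities of 87.6 to 116.2 with the mir-22 mimic and 52.3 to 74.9 with the control mimic at the kept probes, so the values depended on the background correction. Without it the log2 fold changes were 0.33 at ILMN_1808508 and 0.57 at ILMN_2341595, and with the authors' deposited values they were 0.35 and 0.62. Other probes depended on it too. Without background correction KIT was at 0.41 (ILMN_2229379) and 0.50 (ILMN_1790160), CBL at -0.78 (ILMN_1716080) and -0.75 (ILMN_2181968), and CBLB at -0.51.

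**Figure D1:**
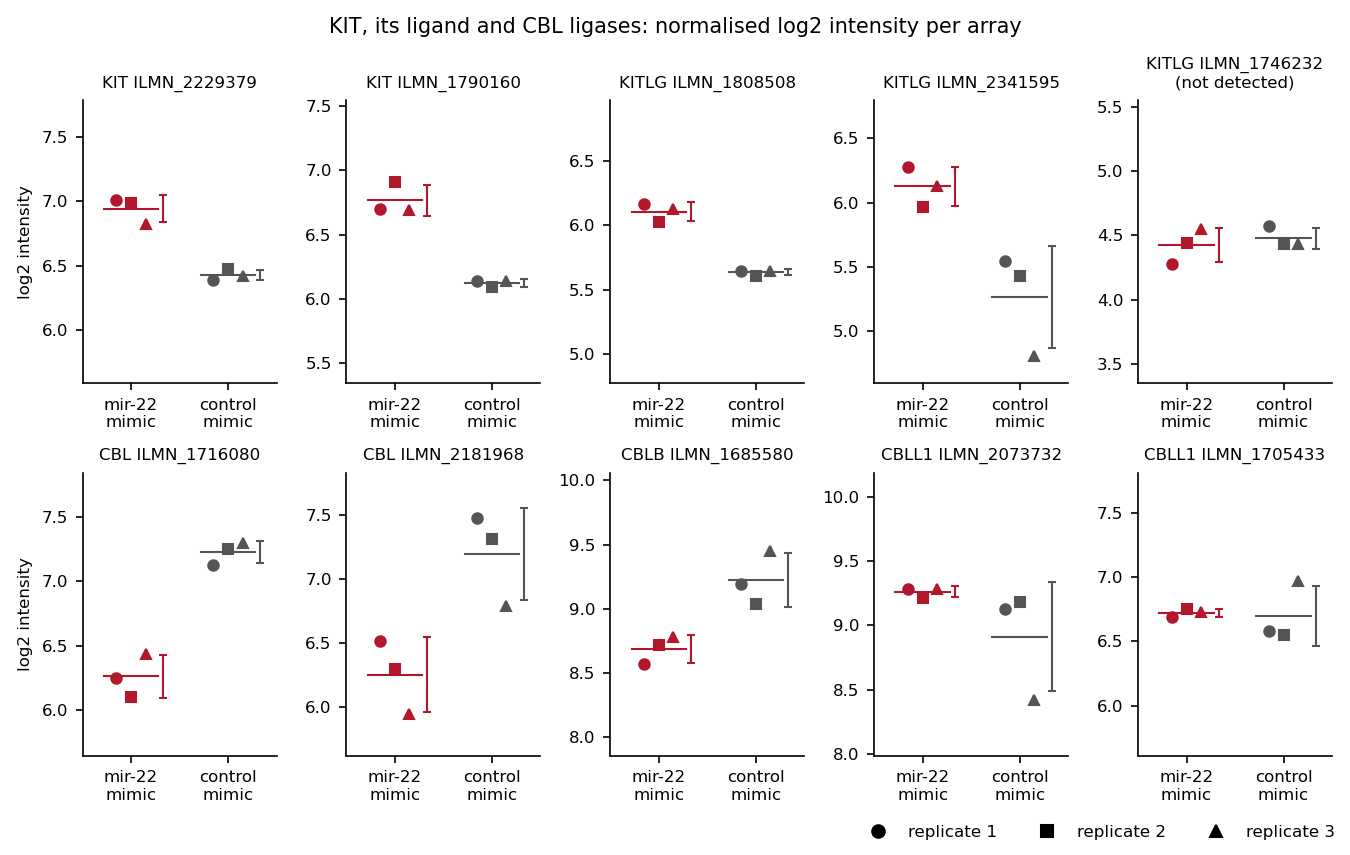
Normalised log2 intensity of each probe of KIT, KITLG, CBL, CBLB and CBLL1, with mir-22 mimic arrays on the left and control mimic arrays on the right; lines are group means, bars are SD (n = 3), symbols are replicate numbers and every panel spans the same log2 range. Groups lie apart at both KIT probes, the 2 kept KITLG probes, both CBL probes, the CBLB probe and, by 0.03, at 1 CBLL1 probe.

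The promoters of KIT and KITLG are shown because these transcripts were higher together. Each is the RefSeq window (GRCh38.p14) of 250 bases before to 50 after the annotated start, at chr4:54657707-54658006 on the plus strand for KIT and at chr12:88580422-88580721 on the minus strand for KITLG. Capitals mark GGGCGG or its reverse complement CCGCCC, the GC box read by SP1-type factors.
KIT: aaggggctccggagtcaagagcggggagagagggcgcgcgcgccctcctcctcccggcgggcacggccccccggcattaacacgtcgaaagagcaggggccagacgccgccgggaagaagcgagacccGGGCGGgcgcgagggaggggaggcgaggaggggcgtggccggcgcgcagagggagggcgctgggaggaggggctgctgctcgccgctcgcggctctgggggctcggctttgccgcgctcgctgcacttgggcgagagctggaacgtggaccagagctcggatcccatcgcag
KITLG: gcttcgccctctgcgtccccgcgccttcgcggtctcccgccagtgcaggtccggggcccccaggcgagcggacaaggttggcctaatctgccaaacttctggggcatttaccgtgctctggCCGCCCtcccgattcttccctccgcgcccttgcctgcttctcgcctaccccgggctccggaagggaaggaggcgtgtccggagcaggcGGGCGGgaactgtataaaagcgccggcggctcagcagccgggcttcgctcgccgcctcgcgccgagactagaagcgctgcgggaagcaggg
KIT held 1 box, 122 bases before the start, and KITLG held 2, starting 129 and 41 bases before it. The box was in 45.0% of the 35116 promoter windows of the same length and in 10 of the 16 windows of these genes, a common sequence. The 16 windows covered 9 of the 10 genes, since no window was available for CBL. These arrays measure transcripts and say nothing of what is bound there.

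CBL encodes the RING-type ligase for which the family is named. Probe ILMN_1716080 read 6.25, 6.10 and 6.44 on the mir-22 mimic arrays, against 7.13, 7.25 and 7.30 on the control mimic arrays. Probe ILMN_2181968 read 6.52, 6.30 and 5.95 with the mir-22 mimic and 7.47, 7.31 and 6.79 with the control mimic. The nearest arrays of the groups lay 0.69 and 0.27 apart. The log2 fold changes, -0.97 ± 0.12 and -0.94 ± 0.20, were the largest in size among the 10 genes. At ILMN_2181968 both number 3 arrays were the lowest of their group, and the differences within replicate numbers (-0.95, -1.02 and -0.84) varied less than the levels. In raw intensity the groups of this probe overlapped, with 133, 114.7 and 80.5 for the mir-22 mimic and 201.1, 183.4 and 117.7 for the control mimic, whereas those of ILMN_1716080 did not.

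CBLB, the close relative of CBL, had 1 probe, ILMN_1685580. It read 8.57, 8.72 and 8.78 on the mir-22 mimic arrays, against 9.19, 9.04 and 9.45 on the control mimic arrays. The groups lay 0.26 apart, and the log2 fold change was -0.54 ± 0.13, or -0.42 without control mimic replicate 3, the highest array. CBLL1 encodes Hakai, a RING ligase known for binding E-cadherin, and had values above 0. Its probe ILMN_2073732 read 9.28, 9.21 and 9.28 with the mir-22 mimic and 9.13, 9.18 and 8.42 with the control mimic. The log2 fold change of 0.35 ± 0.19 was 0.10 without control mimic replicate 3, where the standard error over beads was 12.9%. Its other probe, ILMN_1705433, was at 0.03 ± 0.13 with overlapping groups.

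The adaptors differed less. SHC1, which links receptors to GRB2, was lower with the mir-22 mimic at all 3 of its probes without overlap of the groups. Its brightest probe, ILMN_1721022, read 11.23, 11.16 and 11.27 on the mir-22 mimic arrays, against 11.45, 11.53 and 11.50 on the control mimic arrays. Log2 fold changes were -0.27 ± 0.09 there, -0.46 ± 0.13 at ILMN_1812570 and -0.42 ± 0.12 at ILMN_1701967. None of the 3 passed the threshold with all 6 arrays weighted equally. All 3 passed with array weights, a fit that called 4405 of all 18732 kept probes, where 1210 were called with equal weights. Before normalisation the SHC1 groups lay apart at ILMN_1701967 alone. GRB2, the adaptor that carries SOS1, was at -0.05 ± 0.12 and -0.02 ± 0.19 at its 2 probes, and SOS1, the RAS exchange factor, at -0.16 ± 0.15. The groups overlapped at these 3 probes, and under median scaling both GRB2 values turned positive, at 0.08 and 0.11.

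EGFR is a receptor for epidermal growth factors and a substrate of CBL. Its brightest probe, ILMN_1798975, read 9.85, 9.81 and 9.91 with the mir-22 mimic and 10.02, 10.14 and 10.06 with the control mimic, a log2 fold change of -0.22 ± 0.09 with groups 0.11 apart. Its raw intensities overlapped between groups, and under median scaling the value was -0.08. Its other kept probes, ILMN_1696521 at -0.29 ± 0.15 and ILMN_1728858 at -0.16 ± 0.11, had overlapping groups and were at -0.17 and -0.08 without control mimic replicate 3, and ILMN_1755535 was not above background. MET, the receptor for hepatocyte growth factor, was at 0.11 ± 0.14 at its probe, with 6.71, 6.65 and 6.68 on the mir-22 mimic arrays and 6.54, 6.85 and 6.33 on the control mimic arrays. The control arrays thus lay on both sides of the mimic ones. Leaving out control mimic replicate 3 gave -0.01.

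**Figure D2:**
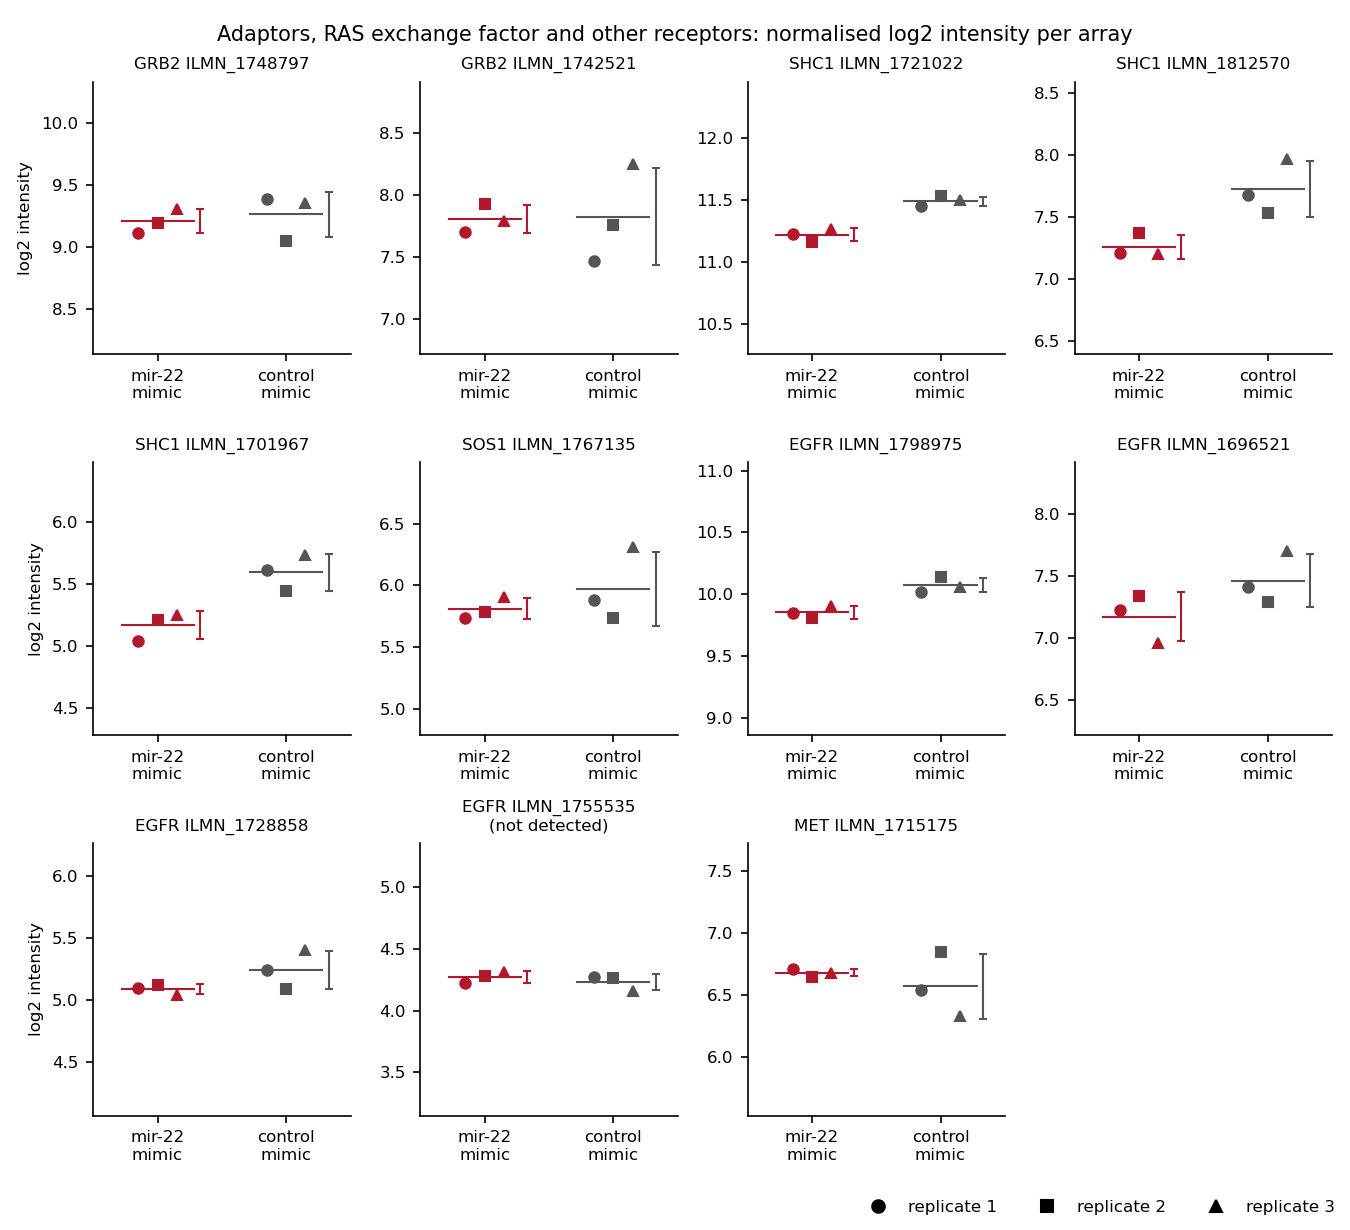
Normalised log2 intensity of each probe of GRB2, SHC1, SOS1, EGFR and MET, with mir-22 mimic arrays on the left and control mimic arrays on the right; lines are group means, bars are SD (n = 3), symbols are replicate numbers and every panel spans the same log2 range. Groups lie apart at the 3 SHC1 probes and at EGFR ILMN_1798975.

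In all, groups of arrays did not overlap at 12 of the 19 kept probes, 5 higher and 7 lower with the mir-22 mimic, beside 31.3% of all kept probes. By brightest probe the median absolute log2 fold change of the 10 genes was 0.31 and that of all 11133 measured genes 0.17. The signed medians were -0.11 and -0.02. These comparisons carry no reading either, since the 10 genes were chosen on this contrast. The count of 7 probes past the threshold depended on single arrays. It was 1, CBL ILMN_1716080, without mir-22 mimic replicate 1, 2 or 3, and also without replicate 2 of the controls. It was 3 without control mimic replicate 1 and 9 without control mimic replicate 3, where 2 SHC1 probes joined. Calls over all 18732 kept probes moved as well, from 1210 with all 6 arrays to 134, 137 and 222 without mir-22 mimic replicate 1, 2 and 3. Without control mimic replicate 1, 2 and 3 they were 601, 419 and 2689. With each array left out in turn, the log2 fold changes of KIT ran from 0.48 to 0.57 at ILMN_2229379 and from 0.57 to 0.68 at ILMN_1790160, and those of KITLG from 0.44 to 0.51 at ILMN_1808508 and from 0.64 to 1.01 at ILMN_2341595. Those of CBL ran from -1.05 to -0.88 at ILMN_1716080 and from -1.14 to -0.78 at ILMN_2181968, that of CBLB from -0.63 to -0.42 and that of CBLL1 ILMN_2073732 from 0.10 to 0.48.

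**Figure D3:**
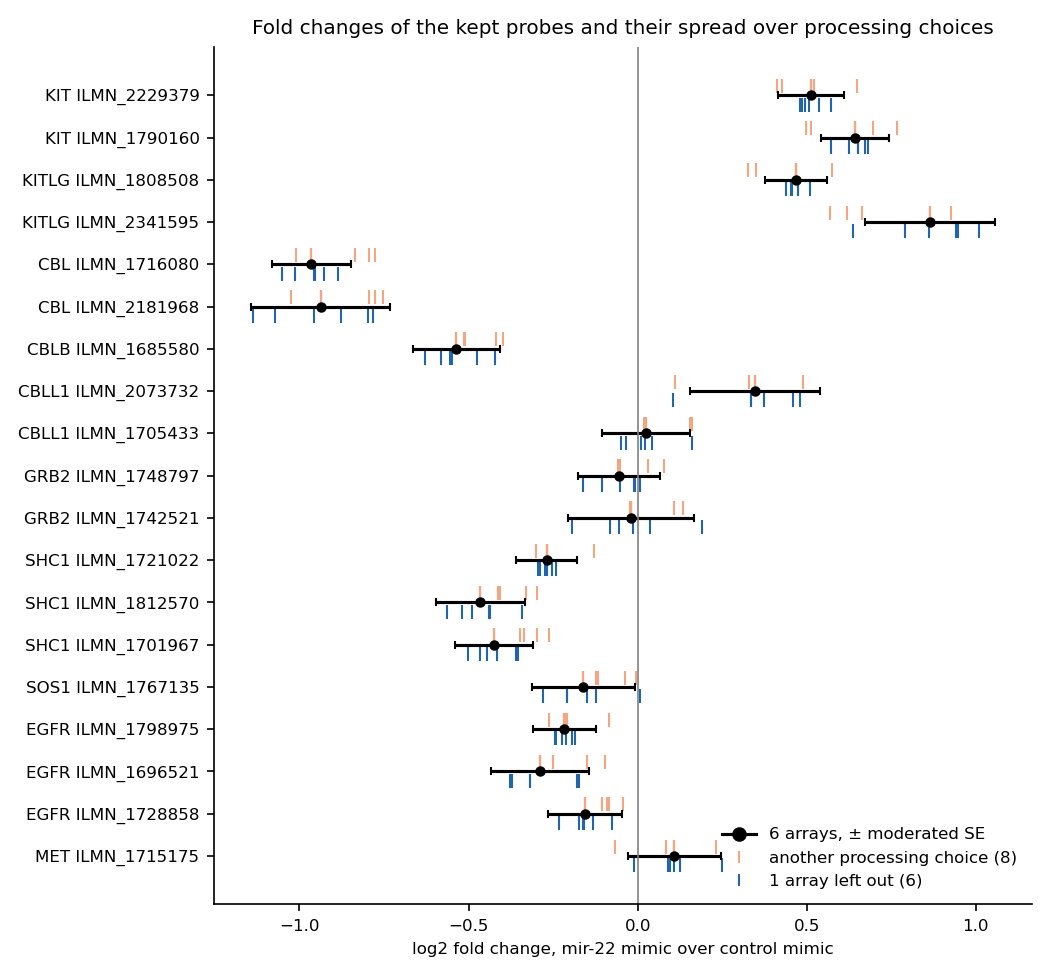
Log2 fold change, mir-22 mimic over control mimic, of the 19 kept probes with the moderated SE as bars; upper ticks are 8 other processing choices and lower ticks are the 6 fits with 1 array left out. KIT and KITLG stay above 0 and CBL, CBLB, SHC1 and EGFR below 0 throughout, while CBLL1 ILMN_1705433, both GRB2 probes, SOS1 and MET cross it.

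The member whose brightest probe differed most between groups was CBL. Among 11132 other measured genes, the 5 with the most similar course over the 6 arrays, by the root mean square difference of log2 values centred on their own mean, were the kinase gene STK39 (0.07), the syntaxin gene STX4 (0.07), the transcription factor gene MYB (0.08), the syntaxin gene STX3 (0.08) and the ribonucleoprotein gene NHP2 (0.08). Their log2 fold changes ran from -1.06 to -0.86. Since the measure is not scaled, a gene close to CBL on it must have a similar fold change. For the same reason probes that vary little lie close to each other. On this measure the KIT and KITLG probes differed by 0.09 to 0.31 over their 4 pairings, and other probes of the 10 genes lay closer, such as SHC1 ILMN_1721022 and EGFR ILMN_1798975 (0.03).

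Other genes of receptor tyrosine kinase signalling were tested for comparison, in 5 lists that hold none of the 10 genes and were drawn up from general knowledge with earlier results of these data known. Of 86 measured genes 1 rose, GRB10, and 1 fell, ITCH, which is 2.33% beside 7.61% of all measured genes by brightest probe (3.47% higher and 4.14% lower). GRB10 encodes an adaptor that binds activated receptors. Its brightest probe read 7.55, 7.62 and 7.51 on the mir-22 mimic arrays, against 6.73, 6.89 and 6.96 on the control mimic arrays, a log2 fold change of 0.70 ± 0.10 (adjusted p = 0.00972, limma). Its other kept probe was at 0.73 ± 0.12 (adjusted p = 0.0144, limma), and its remaining 2 probes were each detected on 2 of 6 arrays. ITCH, a HECT-type ubiquitin ligase, read 8.26, 8.28 and 8.29 with the mir-22 mimic and 8.86, 8.98 and 8.81 with the control mimic, a log2 fold change of -0.61 ± 0.09 (adjusted p = 0.0117, limma). Every mir-22 mimic array lay on the same side of every control mimic array for both genes.

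By list, the receptor tyrosine kinases had 0 of 14 measured genes called in limma (0 at an unadjusted p under 0.05), with log2 fold changes from -0.31 (FGFR1) to 0.26 (PDGFRA). The growth factors of EGFR, MET and related receptors had 0 of 11 (4 at an unadjusted p under 0.05), from -0.39 (NRG1) to 0.43 (VEGFA), with a median of 0.19. The adaptors, docking proteins and RAS regulators had 1 of 13, GRB10 (4 at an unadjusted p under 0.05), and a median of -0.13. The partners of CBL and the machinery of receptor downregulation had 1 of 32, ITCH (9 at an unadjusted p under 0.05), and a median of -0.10. The kinases and RAS proteins below the receptors had 0 of 16 (5 at an unadjusted p under 0.05), with a median of 0.01. The share of all measured genes under that unadjusted p is not given here, so these counts carry no reading. In the fit that blocks on replicate number, 4 of the 86 passed, 3 higher and 1 lower, adding LRIG1, whose groups overlapped, and NEDD4L. Other alternatives added other genes, such as CRKL with the authors' values, without background correction, with no filter and with another variance model. LRIG1, NEDD4L and CRKL are named after their values were seen. Without mir-22 mimic replicate 1, 2 or 3 none passed, with adjusted p-values of 0.0504 to 0.0721 for GRB10 and 0.0591 to 0.0790 for ITCH in limma, over ranges of 0.000151 to 0.0721 and 0.000179 to 0.130 in all their alternatives. Without control mimic replicate 2 the 1 gene that passed was GRB10, and without control mimic replicate 3 the number was 15. That last fit called 2689 of all 18732 kept probes, where 1210 were called with all 6 arrays.

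**Figure D4:**
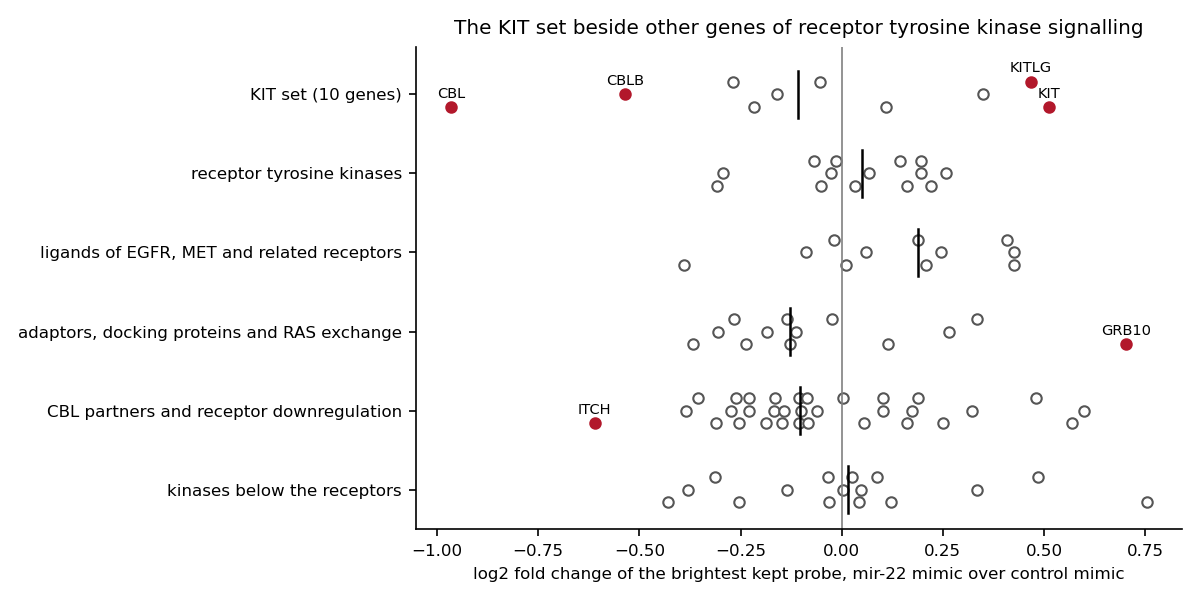
Log2 fold change, mir-22 mimic over control mimic, of the brightest kept probe of each gene, for the 10 genes described here and 5 lists of other signalling genes; filled points passed an adjusted p of 0.05 in limma and short lines are list medians. KIT and KITLG lie right of 0 and CBL and CBLB left of it, and among the 86 other genes only GRB10 and ITCH are filled.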

How the data were processed

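Total RNA was measured on 6 Illumina bead arrays, 3 with hsa-mir-22 mimic and 3 with control mimic. The deposited array files hold, per the file headers, the mean bead intensity of each probe on a linear scale, the bead standard deviation, how many beads it had and a score of detection. The intensities were summarised with BeadStudio, per the submitters' processing notes, and are not normalised. The deposited detection score is a fraction, and 1 minus it was used as detection p. The authors' deposited value table has the same probes as normalised intensity, by a method not given in the sources used here. On mir-22 mimic replicate 1 its median was 48.6, and all 48803 of its values there equal the raw intensities. All 48803 rows of the array files were joined to the value table by their values, without ties, and 24 further columns were not used.

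Symbols came from the platform annotation (28098 probes with 1 symbol, 13 with several, 20692 unnamed here). Intensities were processed with neqc (offset 16, quantile normalisation, log2) in limma 3.58.1 under R 4.3.3. Probes with a detection p under 0.01 on at least 3 arrays were kept, and limma's lmFit and eBayes compared the groups, two-sided, with Benjamini-Hochberg adjustment over 18732 probes at 0.05. Genes other than the 10 were taken by their brightest kept probe. The fit was tested on simulated data. Only 3 arrays per group limit the precision.

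The 10 genes and the lists were chosen with earlier results of these data known. All 21 of their probes are described, and of each list up to 5 genes with the lowest adjusted p among those called were to be named. Same-numbered arrays deviated together from their group means (r = 0.33, 0.14 and 0.43, all above 0.1), so the replicate block, an alternative fit, paired them by number. Numbers 1 and 2 were not set apart by these correlations, since mimic replicate 1 went with control replicate 2 at 0.32 and mimic replicate 2 with control replicate 1 at 0.18. The main fit had no block, so its standard errors, adjusted p-values and calls ignore any pairing. Alternatives were the authors' values, no background correction, median scaling, 2 other filters, another variance model, array weights, the replicate block, the mean of a gene's probes and each array left out.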

Additional observations from a re-analysis of the deposited data

How the results depend on the processing

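Of 266 values of the 19 kept probes under 14 alternatives, 252 moved by less than the SD between replicates and 14 by more. The 2 other filters, the other variance model and the replicate block leave a fold change as it was. Their values could not move. Leaving out 1 of 3 arrays cannot shift a group mean by as much as that SD either. All of these are counted among the 252, so that count is no sign of stability. The 14 came from the authors' values, no background correction and median scaling, and both KIT probes moved under each of them. No probe past the threshold changed sign, which for groups that do not overlap is no sign of stability. The 7 probes past it were 2 under median scaling and 4 with no filter, and array weights gave 11, adding the 3 SHC1 probes and EGFR ILMN_1798975. Median scaling shifted the median of all kept probes by 0.10, and relative to that shift KIT stood at 0.55 and 0.67, KITLG at 0.47 and 0.83, CBL at -0.94 and -0.89 and CBLB at -0.50. It gave 628 probes called in all, 459 higher and 169 lower (73.1% higher), where 1210 were called before, 569 higher and 641 lower (47.0% higher). Array weights called 4405 probes, and 134 to 2689 were called with each array left out. Of the 86 other signalling genes, where 2 were called, 4 passed under median scaling, 4 with no filter, 4 with the replicate block and 23 with array weights, and 0 to 15 with each array left out. ITCH was lost under median scaling (adjusted p = 0.130, limma) and without control mimic replicate 2. The replicate block, which rests on the pairing by number, gave 1577 probes in all and left the 7 probes and both genes called. The cause of these changes was not tested. KITLG, SOS1, SHC1 ILMN_1701967 and EGFR ILMN_1728858 gave dim signals, which limits the precision of their fold changes. Some KIT and CBL signals were near these. KIT ILMN_1790160 had raw intensities of 85.9 to 94.8 on the control mimic arrays. CBL ILMN_2181968 had 80.5 on mir-22 mimic replicate 3, and SOS1 77.7 to 92.6 over all 6 arrays.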
